A study of Mus musculus with 9 samples.

Results

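The hypoxia-inducible factors and the oxygen response of the mouse heart were followed over postnatal age with 10 genes, chosen by symbol: the factor subunits Hif1a, Epas1 and Hif3a, the prolyl hydroxylases Egln1 and Egln3, the target genes Vegfa, Bnip3, Ankrd37 and Ddit4, and the myoglobin gene Mb. All 10 had a probe set naming that gene alone on the Affymetrix Mouse Gene 1.0 ST array, an array that reads each transcript with a set of short probes, out of 19938 genes with such a probe set. A gene with several was represented by its brightest on average. The samples were total RNA of heart muscle from C57BL/6 mice, an inbred laboratory strain, aged 24 hours, 7 days or 10 weeks after birth, with 3 arrays per age and 9 in all. No treatment or genetic change is labelled for any group. Whether each array held a separate animal or a pool is not labelled. The p-values therefore measure only the spread between these samples, which may be technical. The tissue is bulk heart, and fewer cells of a type cannot be told apart from less RNA per cell.

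Cells sense oxygen through the hydroxylation of the hypoxia-inducible factor (HIF) alpha subunits. With oxygen, prolyl hydroxylases of the Egln family mark Hif1a and Epas1 protein for recognition by the von Hippel-Lindau protein and for destruction, and a further hydroxylase, Hif1an, blocks their contact with coactivators. When oxygen is short, the alpha subunit pairs with Arnt, binds the short DNA core of a hypoxia response element, and raises genes of glycolysis, vessel growth, mitophagy and growth restraint, Egln1 and Egln3 among them, which closes a feedback loop. Most of this control acts on protein, which an RNA array does not read. The heart passes at birth into higher oxygen and later relies on mitochondrial oxidation, with myoglobin as its oxygen-binding protein.

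Between 24 hours and 10 weeks the genes moved in different directions. Epas1, Egln1, Egln3, Bnip3, Vegfa, Ankrd37 and Mb rose, Hif1a and Hif3a fell, and Ddit4 did not pass the test. Of the 10, Egln1 had the largest rise, 2.80-fold, and Hif3a the largest fall, with a difference of -1.77 on the log2 scale. In limma's test, adjusted over all 19938 genes and called at an adjusted p under 0.05, 9 of the 10 genes were called at 10 weeks against 24 hours, 7 higher and 2 lower. Over all genes 40.1% were called, 19.5% higher and 20.6% lower. At 7 days against 24 hours 6 were called, 5 higher and 1 lower, beside 10.1% of all genes (5.27% higher, 4.81% lower). At 10 weeks against 7 days 7 were called, 6 higher and 1 lower, beside 35.9% of all genes (17.0% higher, 18.9% lower). Centring each array on its median moved the share of higher genes among all called genes to 41.6% in the first week and 61.3% after it, against 52.3% and 47.3% as deposited, and gave 3 higher and 2 lower among the 10 genes in the first week. When both 7-day arrays with fat transcripts, replicates 2 and 3 (below called fat-bearing), were left out, with 1 array remaining at that age, 3 of the 10 were called in the first week and 4 after it. Called changes of at least 2-fold were found for 3 of the 10 genes over the whole span (6.38% of all genes), 1 in the first week (0.627%) and 2 after it (5.05%). The arrays of the compared ages did not overlap for 9 of the 10 genes at 10 weeks against 24 hours (48.2% of all genes), 9 at 7 days against 24 hours (27.1%) and 7 at 10 weeks against 7 days (44.3%). The median difference of the 10 genes was 0.60 on the log2 scale at 10 weeks against 24 hours, 0.24 at 7 days against 24 hours and 0.20 at 10 weeks against 7 days, and that of all genes 0.04, -0.0017 and 0.04 in the same comparisons.

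**Figure D1:**
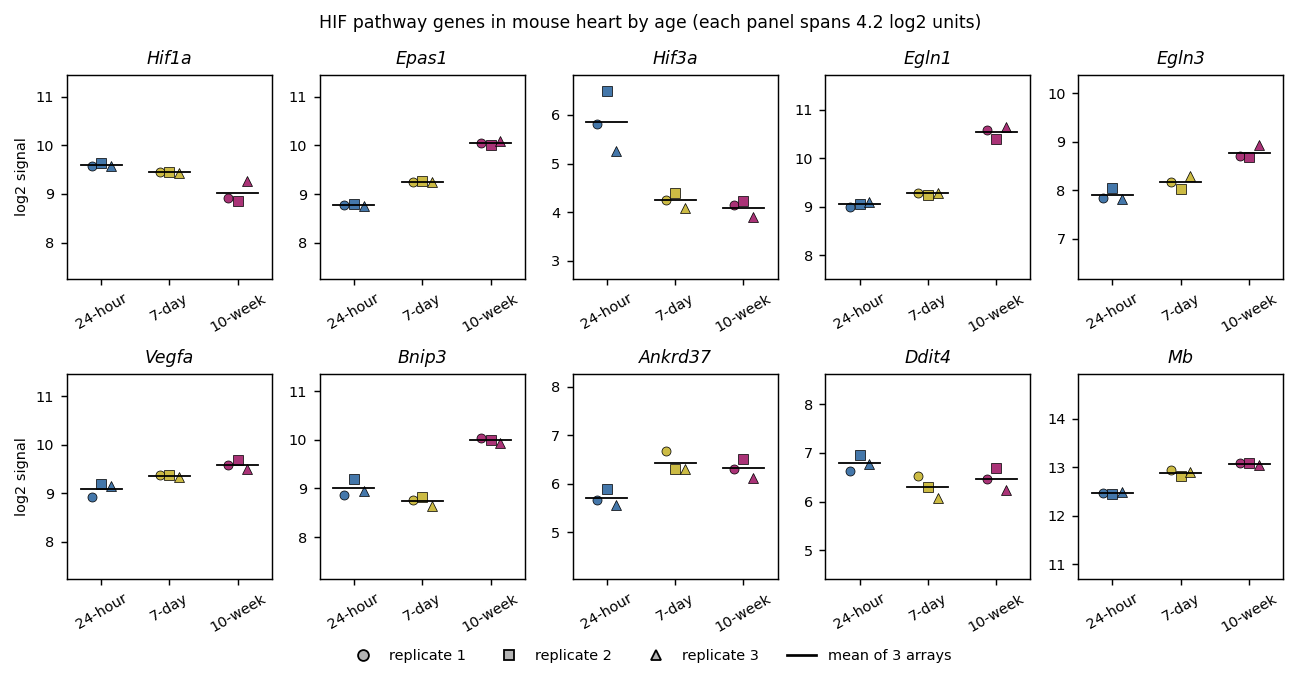
Log2 signal of the 10 genes on each array, by age; symbols mark replicates 1, 2 and 3, lines are means of 3 arrays, and every panel spans the same height on its own level. Hif3a was lower on every array after 24 hours. Epas1, Egln1, Egln3, Vegfa, Bnip3 and Mb stood highest at 10 weeks. The Ddit4 arrays of 10 weeks overlapped those of both other ages.

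Across the arrays the heart muscle genes stood as the label says. The mean log2 signal of 12 cardiomyocyte markers ran from 12.19 to 12.27 on all 9 arrays, and that of 12 skeletal muscle markers from 4.59 to 4.77. Other cell types moved with age. At 10 weeks against 24 hours 8 of 10 macrophage markers were higher and none lower, with list means of 7.66 to 7.84 at 10 weeks against 6.37 to 6.53 at 24 hours. Of 10 fibroblast markers 3 were higher and 5 lower, of 8 smooth muscle and pericyte markers 3 were higher and 2 lower, and of 6 erythroid markers 3 were lower. The fibroblast list peaked at 7 days. In the first week 5 of 10 were higher and 0 lower (median 0.69), and after it 0 were higher and 8 lower (median -1.52), with list means of 9.49 to 9.70 at 24 hours, 10.19 to 10.52 at 7 days and 8.69 to 8.94 at 10 weeks. Over the whole span, from 24 hours to 10 weeks, 4 of 12 endothelial markers were higher and 5 lower, and 3 and 5 of 12 cardiomyocyte markers. For the same span the counts were 2 and 0 of 9 fat markers, 0 and 1 of 12 skeletal muscle markers, and 0 and 0 of 9 liver and airway markers with limma. The skeletal muscle count was 2 without 10-week replicate 1 or 3, and the liver and airway count was 1 without 7-day replicate 2 or 3. Ucp1, which marks brown fat, stood at 11.23 on 7-day replicate 2 and 9.27 on 7-day replicate 3, against 4.30 on replicate 1 of that age and at most 4.27 at the other ages. Single arrays also held airway and liver markers. Scgb3a2 stood at 8.02 on 24-hour replicate 1 and 7.07 on 7-day replicate 2, against at most 3.46 on the others. Scgb1a1 stood at 5.83 and 6.83 on the same arrays, against at most 2.76. Alb was highest on 7-day replicate 2, at 7.81, and next on 24-hour replicate 3, at 6.04. Whether these shifts and single-array values have a part in the results below was not tested, except where a value is given.

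Hif1a encodes the widely expressed alpha subunit. Its log2 signal was 9.58, 9.65 and 9.59 on the 24-hour arrays, 9.46, 9.45 and 9.43 on the 7-day arrays, and 8.92, 8.86 and 9.27 on the 10-week arrays. No array of a later age reached an earlier one, and 10-week replicate 3 lay nearest to the 7-day arrays. Hif1a fell by 0.43 ± 0.09 (SE) between 7 days and 10 weeks (adjusted p = 0.00372) and by 0.59 ± 0.09 over the whole span (adjusted p = 4.20e-04), to 0.665 of its 24-hour signal. Without both 7-day arrays with fat transcripts the later step was -0.44 and not called (adjusted p = 0.0751). The first-week difference of -0.16 was not called (adjusted p = 0.395), although it was without 10-week replicate 3 (adjusted p = 0.0418) and with only the 6 arrays compared (0.0395). From low to high its order was 10 weeks, 7 days, 24 hours, and the last pair of ages did not differ by the test.

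Epas1, which encodes HIF-2 alpha, the subunit first described in endothelium, ran the opposite way. It measured 8.77, 8.80 and 8.75 at 24 hours, 9.26, 9.26 and 9.26 at 7 days, and 10.05, 10.02 and 10.09 at 10 weeks. The ages did not overlap, and each step was many times the spread of the arrays. Epas1 rose by 0.49 ± 0.04 in the first week (adjusted p = 1.07e-04) and by 0.79 ± 0.04 thereafter (adjusted p = 3.87e-07), to 2.43-fold its 24-hour signal at 10 weeks. The 7-day SD was 0.0048 (n = 3), and 7-day replicates 1 and 3 carry the same value to the last digit. Such repeats occurred within the 7-day arrays for 18.0% of all genes and among the 10 genes only for Epas1 and Vegfa. The endothelial markers moved with Epas1 in the first week and against it later. Their mean log2 signal was 8.86 to 8.95 at 7 days against 8.72 to 8.75 at 24 hours, with 4 of 12 higher and 1 lower, a total of 5 that was 3 without 24-hour replicate 1 or 2 or 7-day replicate 1, and 1 without both fat-bearing 7-day arrays. Their part in the first-week rise was not tested. At 10 weeks the mean was 8.64 to 8.72, with 6 of 12 lower and 0 higher against 7 days, while Epas1 rose further. With each array centred on its median, 2 were higher and 6 lower in that step. Over the whole span the list divided. Erg, Egfl7, Robo4 and Kdr were higher, by 0.38, 0.39, 0.33 and 0.30, and Cldn5, Cdh5, Tie1, Tek and Eng were lower, with differences of -0.49, -0.39, -0.39, -0.39 and -0.26.

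The log ratio of Epas1 to Hif1a within an array is free of the scaling between arrays. Set to 0 at the mean of the 24-hour arrays, where the SD was 0.01, it was 0.64 ± 0.01 on the 7-day arrays and 1.87 ± 0.19 on the 10-week arrays (SD, n = 3 each). The 7-day values ran from 0.63 to 0.66 and the 10-week values from 1.65 to 1.99, without overlap. The ratio shows unequal change of the 2 transcripts, and not how much either changed. It does not say which is the more abundant, since signals of different probe sets have no common scale.

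**Figure D2:**
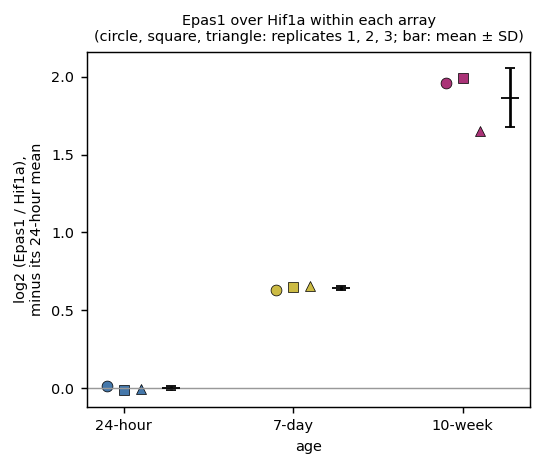
Log2 ratio of Epas1 to Hif1a on each array, minus its 24-hour mean, against age; bars are mean ± SD of 3 arrays. The ratio stood at 0.64 on the 7-day arrays and 1.87 on the 10-week arrays, with 10-week replicate 3 lowest of its age at 1.65.

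Hif3a encodes the third alpha subunit, which lacks the usual C-terminal activation domain, and its short splice forms restrain the others. It measured 5.82, 6.50 and 5.26 on the 24-hour arrays, 4.25, 4.39 and 4.09 on the 7-day arrays, and 4.14, 4.23 and 3.90 on the 10-week arrays. All 24-hour arrays lay above every later array, and they spread widely among themselves (SD 0.62). The 7-day and 10-week arrays overlapped. Hif3a fell in the first week (difference -1.62 ± 0.25, adjusted p = 0.00225), which ranks as the 8th largest fall of 19938 genes. The 10-week arrays differed from the 7-day arrays by -0.15 ± 0.25 (adjusted p = 0.673). Without 7-day replicates 2 and 3, which held fat transcripts, the first-week difference was -1.61 and not called (adjusted p = 0.0878, with 1 array left at 7 days). The later signals lie below 5.57, the median of all gene means, and the table holds no detection flags, so the fall may be understated.

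The DNA bound by these factors holds the core ACGTG or GCGTG. Both were searched on either strand in the 250 bases before each annotated start (RefSeq, GRCm38.p6), and overlapping matches, as in a palindrome, were counted as 1 stretch. The table held a start for 9 of the 10 genes, all but Epas1, and these had 12 windows, since Vegfa has 2 starts and Mb has 3. Of the 12 windows 8 held at least 1 stretch. Such a stretch stood in 38.6% of all 32851 windows, 2 or more in 13.5%, and 3 or more in 4.65%. The Bnip3 window had 4 stretches, beginning 117, 108, 99 and 35 bases before the start, and that of Ankrd37 had 3, beginning at 241, 155 and 6. Egln1 and Ddit4 had 2 each. Hif1a and Hif3a also had 2, Egln3 had 1, and none of the 3 Mb windows had any. Of the 2 Vegfa starts, the upstream one had 0 and the downstream one 2. The downstream window lies past the upstream start, so its stretches are inside the gene as read from there. It is counted among the 8. A match is a description of the letters and not a bound site. Shown are the windows of the largest rise over the whole span, the pair with most stretches, and 1 gene that was not called in any comparison, 5′ to 3′ on the gene's strand, with the cores in capitals.
Egln1 (chr8:124949255-124949504, minus strand): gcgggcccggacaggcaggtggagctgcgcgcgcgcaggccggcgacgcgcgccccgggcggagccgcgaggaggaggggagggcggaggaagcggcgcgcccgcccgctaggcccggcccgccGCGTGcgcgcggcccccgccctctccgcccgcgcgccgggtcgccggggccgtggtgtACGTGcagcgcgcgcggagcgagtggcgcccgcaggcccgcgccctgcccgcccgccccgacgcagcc
Bnip3 (chr7:138909507-138909756, minus strand): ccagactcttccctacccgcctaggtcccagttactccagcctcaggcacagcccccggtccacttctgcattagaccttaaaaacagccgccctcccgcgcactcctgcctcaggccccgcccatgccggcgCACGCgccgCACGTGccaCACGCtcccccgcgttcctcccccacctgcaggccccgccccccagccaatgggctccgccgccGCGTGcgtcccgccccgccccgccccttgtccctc
Ankrd37 (chr8:45999851-46000100, minus strand): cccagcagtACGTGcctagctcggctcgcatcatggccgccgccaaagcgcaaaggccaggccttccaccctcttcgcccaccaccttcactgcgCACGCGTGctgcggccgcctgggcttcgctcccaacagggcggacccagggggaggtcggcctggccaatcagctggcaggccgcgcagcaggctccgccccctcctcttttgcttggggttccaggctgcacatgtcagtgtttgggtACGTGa
Ddit4 (chr10:59951771-59952020, minus strand): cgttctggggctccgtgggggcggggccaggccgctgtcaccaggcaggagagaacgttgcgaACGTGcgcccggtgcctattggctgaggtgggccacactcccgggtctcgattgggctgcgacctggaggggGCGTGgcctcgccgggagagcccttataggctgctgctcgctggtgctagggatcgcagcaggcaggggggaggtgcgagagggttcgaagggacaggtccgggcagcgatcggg

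Egln1 encodes PHD2, the main oxygen-sensing prolyl hydroxylase. Its log2 signal was 8.998, 9.05 and 9.10 at 24 hours, 9.29, 9.25 and 9.29 at 7 days, and 10.57, 10.40 and 10.63 at 10 weeks. The ages did not overlap, and the 10-week arrays lay more than 1 log2 unit above the rest. Egln1 rose by 1.26 ± 0.06 after the first week (adjusted p = 1.88e-07), a 2.39-fold difference that ranks 231st among all rises. The first-week difference of 0.23 ± 0.06 was called narrowly (adjusted p = 0.0487) and in 7 of 18 alternative settings, over which the adjusted p ran from 0.0151 to 0.317. The call was lost when any 24-hour array was left out (0.167, 0.136 and 0.0778 for replicates 1 to 3), any 7-day array (0.126, 0.0881 and 0.149) or the first 10-week array (0.0682). It was also lost with the replicate number as a block (0.0550), without an intensity trend (0.0629), with centred arrays (0.0767) or without both fat-bearing arrays (0.317).

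Egln3, which encodes PHD3, a hydroxylase whose gene is itself strongly induced by HIF, measured 7.84, 8.04 and 7.83 at 24 hours, 8.17, 8.03 and 8.30 at 7 days, and 8.70, 8.69 and 8.94 at 10 weeks. The 2 younger ages overlapped and all 10-week arrays lay above them. Egln3 rose by 0.61 ± 0.09 between 7 days and 10 weeks (adjusted p = 4.67e-04) and stood 1.83-fold above its 24-hour signal. Its first-week difference was 0.26 ± 0.09 (adjusted p = 0.120).

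**Figure D3:**
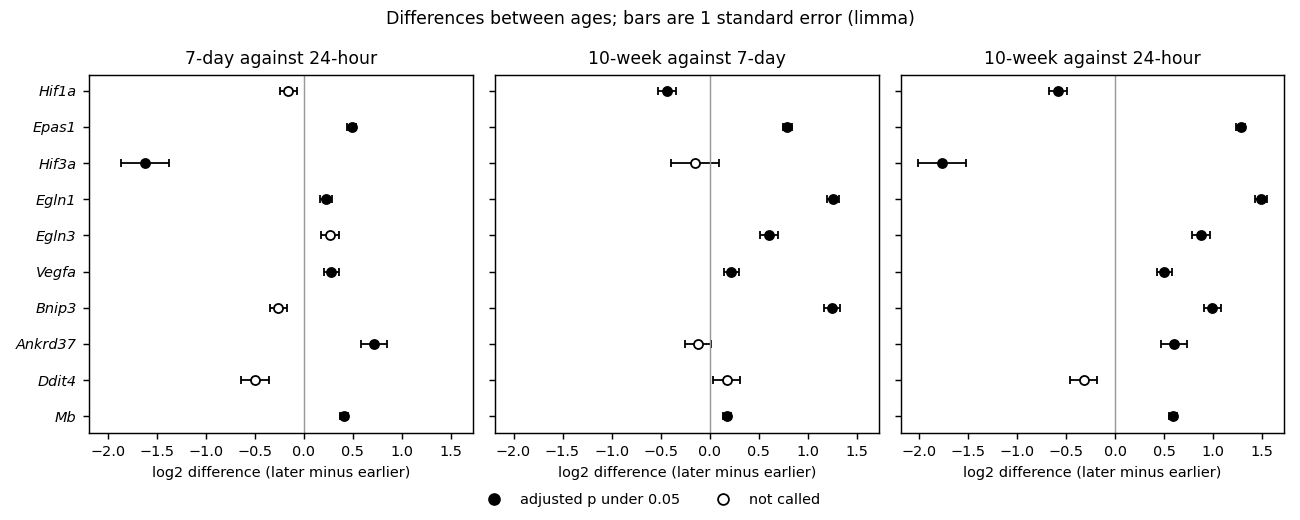
Log2 differences of the 10 genes, later minus earlier age, in the 3 comparisons; bars are 1 standard error and filled points have an adjusted p under 0.05. Egln1 and Bnip3 rose by 1.26 and 1.25 after the first week, while Hif3a and Ankrd37 had their called differences in the first week and not after it.

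Vegfa encodes the vascular endothelial growth factor that drives capillary growth. It measured 8.92, 9.19 and 9.16 at 24 hours, 9.38, 9.38 and 9.33 at 7 days, and 9.59, 9.68 and 9.49 at 10 weeks. The ages lay in order without overlap, but the steps were small. At 10 weeks Vegfa was 0.50 ± 0.08 higher than at 24 hours (1.42-fold, adjusted p = 3.69e-04). The steps of 0.28 ± 0.08 and 0.22 ± 0.08 were both narrowly called (adjusted p = 0.0461 and 0.0441), in 6 and 9 of 18 alternatives, with adjusted p between 0.0251 and 0.306 and between 0.0157 and 0.313. The first step was not called without 24-hour replicate 1, 2 or 3 (0.136, 0.0561 and 0.0707), 7-day replicate 1, 2 or 3 (0.125, 0.116 and 0.104) or 10-week replicate 1 (0.0713). Nor was it with the replicate number as a block (0.0540), centred arrays (0.0737), no intensity trend (0.0556) or only the 6 arrays compared (0.0636). For the second step the call was lost when 24-hour replicate 3 (0.0544), 7-day replicate 1, 2 or 3 (0.0800, 0.0822 and 0.127) or 10-week replicate 1 or 2 (0.0952 and 0.1398) was left out. It was also lost under quantile normalization (0.0858) and without an intensity trend (0.0519). Without both fat-bearing 7-day arrays the 2 steps were 0.30 and 0.20, neither called, with 1 array left at 7 days.

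Bnip3 encodes a mitochondrial outer membrane protein that recruits the autophagy machinery in mitophagy. On the probe set used it measured 8.87, 9.19 and 8.96 at 24 hours, 8.77, 8.83 and 8.64 at 7 days, and 10.05, 9.99 and 9.94 at 10 weeks. Every 10-week array lay at least 0.75 above every younger one. Bnip3 rose by 1.25 ± 0.08 after the first week (2.38-fold, adjusted p = 1.41e-06), next to Egln1 at rank 233 among all rises, and was 1.99-fold higher at 10 weeks than at 24 hours. The first-week difference of -0.26 ± 0.08 was not called (adjusted p = 0.0890). The second Bnip3 probe set, 10568785, averaged 8.08, 7.97 and 9.09 at 24 hours, 7 days and 10 weeks, against 9.01, 8.75 and 10.00 for the one used, 10414269. Its order of the ages was the same.

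Ankrd37 encodes a small ankyrin repeat protein known as a direct HIF-1 target. It measured 5.67, 5.90 and 5.58 at 24 hours, 6.68, 6.30 and 6.31 at 7 days, and 6.30, 6.51 and 6.13 at 10 weeks. The 7-day and 10-week arrays overlapped, and all lay above the 24-hour arrays. Ankrd37 rose by 0.72 ± 0.13 in the first week (1.64-fold, adjusted p = 0.00693). The later difference of -0.11 ± 0.13 was not called (adjusted p = 0.542) and was 0.013 without 7-day replicate 1, the highest array. At 10 weeks the gene was 0.60 ± 0.13 above its 24-hour signal (adjusted p = 0.00407).

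Ddit4 encodes REDD1, an inhibitor of mTORC1 signalling induced by low oxygen, energy shortage and glucocorticoids. It measured 6.63, 6.96 and 6.78 at 24 hours, 6.52, 6.29 and 6.07 at 7 days, and 6.47, 6.69 and 6.24 at 10 weeks. The 7-day arrays lay just under the 24-hour arrays and the 10-week arrays overlapped both. The first-week difference was -0.50 ± 0.14 with an adjusted p of 0.0501, and it was called in 8 of 18 alternatives, among them those without 7-day replicate 1 (0.0344), 10-week replicate 2 (0.0403) or 10-week replicate 3 (0.0358), and that with the replicate number as a block (0.0369). The other differences were 0.17 ± 0.14 at 10 weeks against 7 days (adjusted p = 0.366) and -0.32 ± 0.14 at 10 weeks against 24 hours (adjusted p = 0.0936, and 0.03996 without 10-week replicate 2).

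Mb encodes myoglobin, the haem protein that stores oxygen in muscle and eases its diffusion to mitochondria. Its log2 signal was 12.48, 12.45 and 12.50 at 24 hours, 12.94, 12.82 and 12.91 at 7 days, and 13.08, 13.09 and 13.04 at 10 weeks. The ages did not overlap. Mb rose by 0.41 ± 0.04 in the first week (adjusted p = 1.84e-04) and by 0.18 ± 0.04 after it (adjusted p = 0.00542), 1.51-fold in all. The second step was not called without 7-day replicates 2 and 3 (0.13, adjusted p = 0.115). The highest value of the whole table is 13.58 and saturation is not flagged, so differences at this signal may be understated. The cardiomyocyte marker mean was 12.19 to 12.24 on the 7-day against 12.23 to 12.27 on the 24-hour arrays.

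Arrays of 1 age also differed among themselves. At 24 hours replicate 2 held the highest value for 8 of the 10 genes, all but Egln1 and Mb, while it held the highest for 28.7% of all genes. It stood 0.64 above the age mean for Hif3a, 0.19 for Bnip3, 0.19 for Ankrd37 and 0.17 for Ddit4. Of 42 further HIF target genes, 18 were highest on that array, 10 on replicate 1 and 14 on replicate 3. Of all genes 40.6% were highest on replicate 1 and 30.7% on replicate 3. At 7 days 5 of the 10 genes were highest on replicate 1, 3 on replicate 2 and 2 on replicate 3. The shares of all genes there were 39.5%, 30.5% and 30.1%. At 10 weeks the counts were 1, 5 and 4 in that order, beside 32.6%, 31.4% and 36.0% of all genes. These counts were taken after the values had been seen and have no test. Without 24-hour replicate 2, 4 of the 10 genes were called in the first week, 3 higher and 1 lower.

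**Figure D4:**
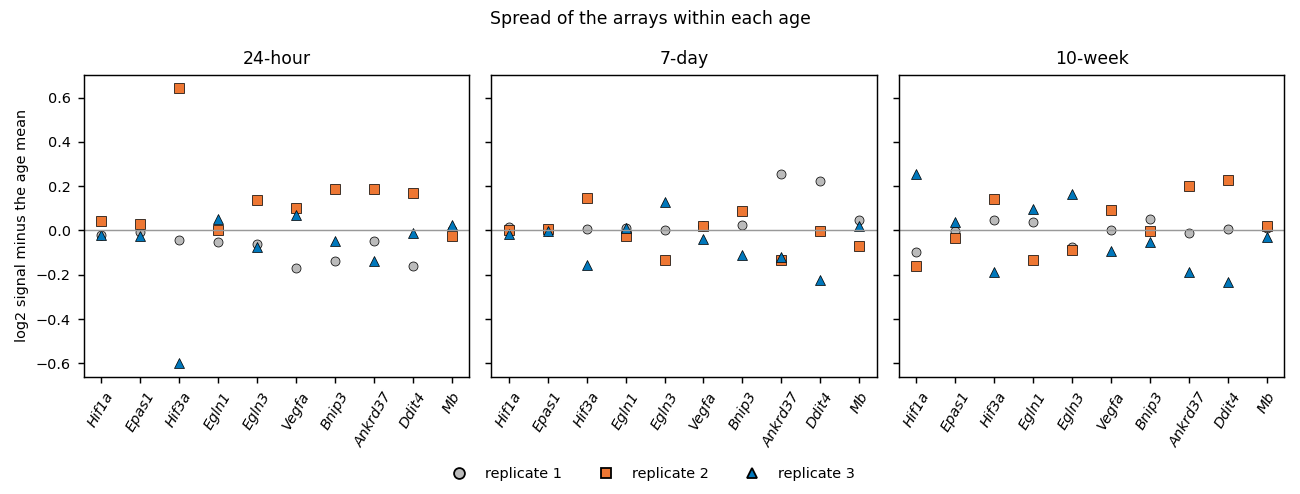
Log2 signal of each array minus the mean of its age, for the 10 genes at each age; colours and symbols mark the replicates. The 24-hour replicate 2 lay 0.64 above its age mean for Hif3a and was highest for 8 of 10 genes.

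The lists that follow are descriptions, to be read against the shares of all genes called, which were 40.1% at 10 weeks against 24 hours, 35.9% at 10 weeks against 7 days and 10.1% in the first week, with medians of 0.04, 0.04 and -0.0017. The rest of the machinery was read from a list of 18 partners, hydroxylases and members of the von Hippel-Lindau complex, 16 of them tested. Over the whole span 2 were higher and 5 lower (43.8% called, beside 40.1% of all genes), with a median of -0.14. At 10 weeks against 7 days 3 were higher and 6 lower (56.2%, beside 35.9%), with a median of -0.05. Arnt, the shared beta subunit, measured 8.14 ± 0.01 at 10 weeks against 8.37 ± 0.03 at 7 days (difference -0.23, adjusted p = 0.00329). Hif1an, the asparaginyl hydroxylase, rose by 0.31 in the same step (adjusted p = 0.00891), and P4htm, a membrane-bound prolyl hydroxylase, by 0.47. Vhl fell by 0.28 on the log2 scale and Siah1a, a ubiquitin ligase that acts on Egln proteins, by 0.44. The coactivator gene Crebbp fell in both steps, by 0.30 and 0.46, and its relative Ep300 fell by 0.25 over the whole span. Cited2, which competes with HIF for these coactivators, fell by 0.28 in the first week and rose by 0.37 after it. Egln2, the third prolyl hydroxylase, averaged 7.10, 7.11 and 7.09 at the 3 ages and was not called, nor was the scaffold gene Cul2. In the first week 0 were higher and 2 lower with limma, Crebbp and Cited2 (12.5% called, beside 10.1%). The count was 0 without 24-hour replicate 2, 7-day replicate 1 or 7-day replicate 3. It was 1 without 24-hour replicate 1, 24-hour replicate 3 or 10-week replicate 1. With the replicate number as a block the count was 0. Without both fat-bearing 7-day arrays it was 0 in the first week and 3 after it.

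Of 20 HIF target genes of glycolysis 17 were tested. In the first week 1 was higher and 7 lower (47.1% called, beside 10.1% of all genes, median -0.13), led by the aldolase gene Aldoc, at 4.77 ± 0.12 on 7-day against 6.47 ± 0.08 on 24-hour arrays, the glucose transporter gene Slc2a1, which fell by 0.99, and the phosphofructokinase gene Pfkp, which fell by 0.64. After it 4 were higher and 4 lower (47.1% called, beside 35.9%, median -0.03). Slc2a1 rose by 0.59, and the kinase gene Pdk1, which holds pyruvate back from mitochondrial oxidation, fell by 0.42 and then rose by 0.50. The hexokinase gene Hk2 rose in both steps, by 0.57 and 1.38. Over the whole span 3 were higher and 9 lower (70.6% called, beside 40.1%, median -0.22), and the lactate dehydrogenase gene Ldha fell by 0.42. Without both fat-bearing 7-day arrays 5 of the list were called in the first week, 1 higher and 4 lower.

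Of 26 target genes outside glycolysis 25 were tested, and they divided. Over the whole span 9 were higher and 8 lower (68.0% called, beside 40.1% of all genes), with a median of -0.01 beside 0.04 for all genes. The mitochondrial adenylate kinase gene Ak4 averaged 7.31 ± 0.17 at 10 weeks against 5.86 ± 0.17 at 24 hours. P4ha1, a collagen prolyl hydroxylase, rose in both steps, by 0.51 and 0.41, as did the repressor gene Bhlhe40, by 0.39 and 0.29. The lipase inhibitor gene Angptl4 averaged 5.83 ± 0.20 at 10 weeks against 8.65 ± 0.03 at 24 hours, a difference of -2.81, and the transferrin receptor gene Tfrc, which immature red cells also express, fell by 1.83. The histone demethylase gene Kdm3a fell by 0.70, and the vasodilator peptide gene Adm differed by -0.07 (adjusted p = 0.739). At 10 weeks against 7 days 9 were higher and 8 lower (68.0% called, beside 35.9% of all genes). In the first week 4 were higher and 1 lower (20.0%, beside 10.1%). The total of 5 became 3 when 24-hour replicate 2 was left out, 2 when 7-day replicate 3 was, and 8 when 10-week replicate 3 was. Without both fat-bearing 7-day arrays it was 0, and 11 after the first week.

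**Figure D5:**
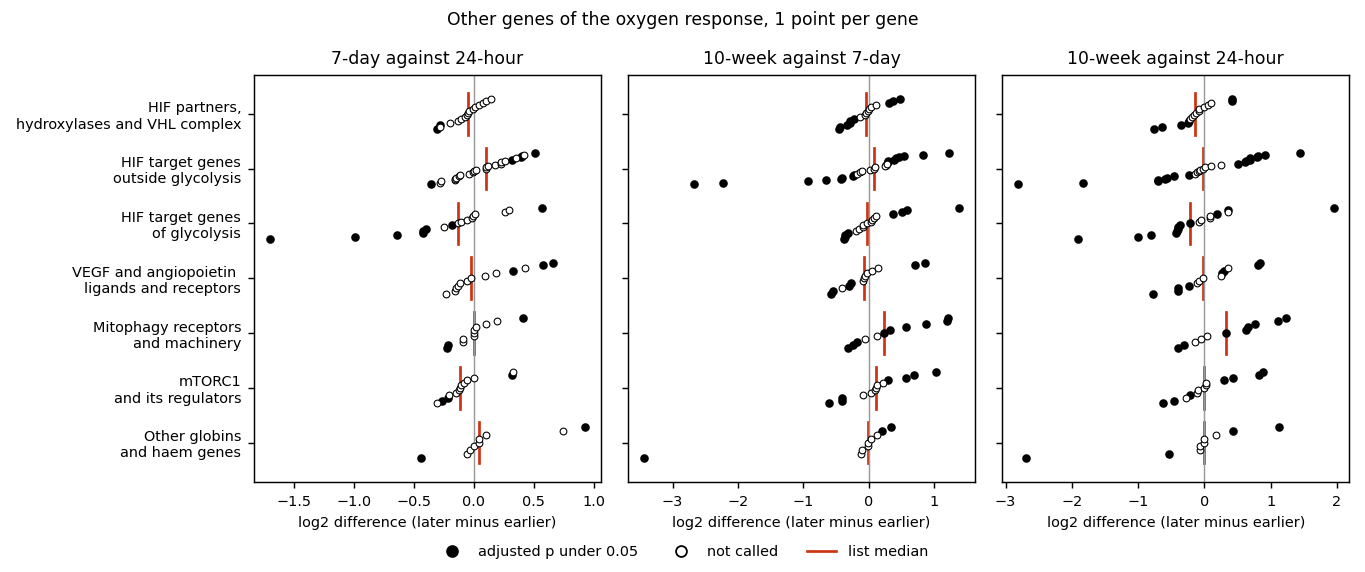
Log2 differences, later minus earlier age, of the other genes of the oxygen response in 3 comparisons, 1 point per gene, filled where the adjusted p was under 0.05, with the list median as a red line; the horizontal scales differ between panels. Target genes spread to both sides of 0 at 10 weeks, and the mitophagy list had its median at 0.32 at 10 weeks against 24 hours.

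Beside Vegfa, 13 ligands and receptors of vessel growth were tested. Over the whole span 4 were higher and 4 lower (61.5% called, beside 40.1% of all genes, median -0.01). Vegfb, a ligand abundant in oxidative tissue, averaged 10.22 ± 0.04 at 10 weeks against 9.41 ± 0.10 at 24 hours, and its receptor gene Flt1 8.73 ± 0.13 against 7.89 ± 0.07. Both had their called difference after the first week, by 0.71 and 0.86. Kdr, the main signalling receptor of Vegfa, rose by 0.33 in the first week and differed by -0.03 after it (adjusted p = 0.709). The coreceptor gene Nrp2 rose by 0.57 and then fell by 0.31, and Nrp1 fell by 0.24 over the whole span. The ligand gene Vegfd rose by 0.66 in the first week. The angiopoietin gene Angpt1 and its receptor gene Tek fell by 0.78 and 0.39 over the whole span. The counts were 3 higher and 0 lower in the first week (23.1% called, beside 10.1% of all genes). After it they were 2 higher and 4 lower (46.2%, beside 35.9%). They were 0 and 3 in total without both fat-bearing 7-day arrays.

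Of 11 other mitophagy genes tested, 6 were higher and 2 lower at 10 weeks against 24 hours (72.7% called, beside 40.1% of all genes, median 0.32). Against 7 days 6 were higher and 3 lower (81.8%, beside 35.9%, median 0.23). The first-week share called was 27.3%, beside 10.1%. Pink1, the kinase that marks damaged mitochondria, measured 10.30, 9.90 and 10.10 at 10 weeks against 8.94, 8.85 and 8.82 at 24 hours, a difference of 1.23. Gabarapl1, of the family that coats autophagosomes, was 1.11 higher, the receptor gene Fundc1 0.76 higher, and the adaptor gene Sqstm1 0.66 higher. The nearest relative of Bnip3, Bnip3l, fell by 0.24 between 7 days and 10 weeks (adjusted p = 0.00802), and Phb2, a receptor of the inner membrane, fell by 0.40 over the whole span. In the first week Map1lc3a was higher and Phb2 and Sqstm1 were lower, a total of 3 that was 1 without any 1 of the 24-hour or 7-day arrays, and without both fat-bearing ones.

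Ddit4 acts through mTORC1, and 13 genes of that complex and its regulators were tested. Over the whole span 4 were higher and 3 lower (53.8% called, beside 40.1% of all genes), and the counts against 7 days were equal (beside 35.9%). Deptor, an inhibitor of the complex, was 0.89 higher at 10 weeks than at 24 hours, Sesn1, a stress-induced inhibitor, 0.82 higher and Tsc2, through which Ddit4 acts, 0.44 higher. The translation repressor gene Eif4ebp1 fell by 0.63. Ddit4l, the relative of Ddit4, fell by 0.61 after the first week. In the first week 1 was higher and 2 lower (23.1%, beside 10.1%). Their total was 0 without 24-hour replicate 1, 2 or 3 and 1 without 7-day replicate 1 or 3.

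Of 12 other globin and haem genes 9 were tested. Cygb, which encodes cytoglobin, a globin of fibroblasts and pericytes, rose in both steps, by 0.93 and 0.20, and averaged 9.09 ± 0.05 at 10 weeks against 7.97 ± 0.09 at 24 hours. The parts of the fibroblast and pericyte shifts in its rise were not tested. The fibroblast list had 5 of 10 markers higher in the first week and 8 lower after it. The smooth muscle and pericyte list had 2 of 8 higher and 0 lower, then 1 higher and 4 lower. Within it Rgs5 ran from 8.81 to 8.89 at 24 hours, 10.02 to 10.29 at 7 days and 10.37 to 10.53 at 10 weeks. Kcnj8 ran from 8.12 to 8.36, 8.76 to 9.10 and 8.89 to 9.20 at these ages. Alas2, the haem synthesis enzyme of red cells, measured 4.56, 7.12 and 4.25 at 10 weeks against 8.10, 7.51 and 8.39 at 24 hours, and was called lower (adjusted p = 0.00452). The embryonic globin gene Hbb-y fell by 0.54 and Fech, which inserts iron into haem, rose by 0.44. The counts were 2 higher and 2 lower at 10 weeks against 24 hours (44.4% called, beside 40.1% of all genes). Against 7 days they were 2 higher and 1 lower (33.3%, beside 35.9%), and in the first week 1 of each (22.2%, beside 10.1%). The first-week total of 2 was 1 without 24-hour replicate 1 or 3, any 7-day array or 10-week replicate 1. Without both fat-bearing 7-day arrays it was 1, and 0 after the first week.

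For the genes whose age means spanned at least 1 log2 unit, the genes with the nearest pattern over the 9 arrays were found by the root mean square distance between centred log2 signals. For Epas1 these were Coq8a and Pld4, at 0.046 and 0.048. For Egln1 they were Clec10a and Intu, at 0.072 and 0.075, and for Bnip3 they were Art3 and Gabarapl1, at 0.084 and 0.087. Clec10a is dim, at 3.34, 3.54 and 4.76 on average at the 3 ages, all below 5.57, the median of all gene means. Since the signals were centred, the distance does not take in such a difference of level. Hif3a had no neighbour as close. Its nearest genes, Igf2bp1 and Oit3, lay 0.31 and 0.34 away. The distance takes in the spread of arrays within an age, which for Hif3a at 24 hours was wide (SD 0.62). It therefore does not show that the age pattern of Hif3a is unusual.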

How the data were processed

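Total RNA of heart was hybridised to 9 arrays. The authors deposited 1 log2 signal per probe set and array. MAS5 5.0 is named, per the submitters' processing notes. How probes were summarised, how arrays were normalized and which log base applies are not stated in the sources. Base 2 was inferred, since the highest value, 13.58, exceeds the natural log of a 16-bit reading (11.09). Values were used as deposited, with array medians within 0.05 of each other over all probe sets and within 0.08 over the genes tested. The platform table names 1 gene for 21789 of 35556 probe sets. Of these, 21698 were matched by Entrez id to a RefSeq symbol, which was used.

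Sample titles gave the age groups. One mean per age was estimated for all 19938 genes with limma 3.58.1 (R 4.3.3; eBayes with an intensity trend; 6 residual degrees of freedom per gene before moderation), with Benjamini-Hochberg adjustment over all genes in each of 3 comparisons, and was tested on simulated data. Differences are later minus earlier age. Arrays carry no counts, and precision is limited by having 3 of them at each age.

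The 10 genes, 7 gene lists and 9 marker lists were chosen with earlier results of these data known. The text names all 10 genes, a fixed set of pathway genes and 2 nearest patterns per gene. It also names up to 3 genes per list and comparison by the size of their difference among those called. Ucp1, Scgb3a2, Scgb1a1, Alb, Rgs5, Kcnj8 and the endothelial markers called over the whole span were named after their values were seen. In all, 18 alternatives were tried. Tables and figures were made with Python 3.11.15, pandas 2.3.3 and matplotlib 3.10.9.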

Additional observations from a re-analysis of the deposited data

How the results depend on the processing

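The number of the 10 genes called was 6 in the first week, 7 between 7 days and 10 weeks and 9 between 24 hours and 10 weeks. Leaving out any 1 array gave 4 to 8, 6 to 7 and 9 to 10 in that order. The other alternatives gave 3 to 8, 4 to 7 and 9. The lowest of these, 3 in the first week and 4 after it, came from leaving out both 7-day arrays with fat transcripts, when a lone array, assumed to vary like those of the other ages, stood for 7 days. With the replicate number as a block the counts were 5, 7 and 9. Same-numbered arrays did not deviate together (correlations of -0.174 to 0.133 over genes), so the numbers were not taken as pairs. Called differences of the 10 genes kept their sign under all 18 alternatives. Among those not called, Ankrd37 ran from -0.21 to 0.013 at 10 weeks against 7 days as single arrays were left out, the last without 7-day replicate 1, and Ddit4 turned to -0.049 in that comparison without both 7-day arrays with fat transcripts. Epas1, Ankrd37 and Mb in the first week, Epas1, Egln1, Egln3 and Bnip3 after it, and all 9 genes called over the whole span were called under all 18. The first-week calls of Egln1 and Vegfa and the later one of Vegfa were the least stable. Counts for gene and marker lists moved by over 1.5 times in 57 values with 1 array left out and did not in 375, and under the other alternatives in 38 and not in 394. Dim signals have no detection flag and very bright ones no saturation flag.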

Other observations

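Many genes carried exactly the same value on several arrays of an age. Within the 24-hour, 7-day and 10-week arrays 16.2%, 18.0% and 8.31% of the 19938 genes had such a repeat, and 466, 510 and 185 genes were equal on all 3 arrays. The hexokinase gene Hk2 measured 7.99 on each 7-day array, to the last digit deposited. The median SD of a gene was 0.07 at 24 hours, 0.07 at 7 days and 0.10 at 10 weeks. How the values were summarised is not given in the sources used here, and the cause of the repeats was not tested.

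At 10 weeks replicates 3 and 2, the highest and lowest of their age for Hif1a, were also highest and lowest for Egln1 and Egln3. For Egln3 replicate 2 lay close to replicate 1 (8.69 and 8.70). Egln2 was instead lowest on replicate 3 (7.00), and Hif1an was highest on replicate 1 (7.29). Replicate 3 was highest of its age for Hif1a, Epas1, Egln1 and Egln3. It was lowest for Hif3a, Vegfa, Bnip3, Ankrd37, Ddit4 and Mb. Replicate 2 was highest for Hif3a, Vegfa, Ankrd37, Ddit4 and Mb. Over all genes 36.0% were highest on replicate 3 and 31.4% on replicate 2. The values of the named genes are of single arrays, with no test.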
